A study of Mus musculus with 2 samples.

Results

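The 3 fibroblast growth factor receptors Fgfr1, Fgfr2 and Fgfr3 and the 5 ligands Fgf1, Fgf2, Fgf7, Fgf18 and Fgf23 were followed in single cells of mouse femur and tibia. These 8 genes were chosen by name from the 28380 genes in the data, and all 8 were detected in both libraries. FGF ligands bind receptor tyrosine kinases together with heparan sulfate, and the receptors signal through the adaptor Frs2 to the MAP kinase pathway, which is held back by the Sprouty and Spred proteins. In the skeleton, Fgfr3 restrains chondrocyte proliferation in the growth plate, Fgfr1 and Fgfr2 act in the osteoblast lineage, Fgf18 is a ligand of the perichondrium, and Fgf23 is a hormone best known from osteocytes that lowers phosphate reabsorption in the kidney. Fgf1 and Fgf2 are ligands without a classical secretion signal, and Fgf7 is a mesenchymal ligand of the epithelial splice form of Fgfr2.

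There was 1 library per genotype. The Control library came from tamoxifen-treated mice with genotype Dach1OE +/f, which carry the inducible Dach1 allele without Cre. The Dach1OE library came from tamoxifen-treated mice with genotype Apj CreERT2 - Dach1OE +/f, in which the Aplnr (Apj) driver turns on Dach1 in the cells that use it at the time of tamoxifen. All mice were C57BL/6 of both sexes at postnatal day 30, and per the methods of the study tamoxifen was given on P1 and P2, the line was interbred with the R26-mT/mG reporter, and the cells of 2 mice went into each library. Epiphyses were removed, and haematopoietic cells were depleted through lineage, CD45 and CD117 antibodies.

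With 1 library per group no test between the genotypes was possible, and no p-value is given. Levels are unique molecular identifiers (UMIs) of a gene, summed over the cells of a class and scaled to 1000000 UMIs of that class (CPM), with exact 95% Poisson intervals in parentheses where given. Ratios of Dach1OE over Control are log2 values with 95% exact binomial intervals. All of these intervals cover counting error only, and neither the spread between mice nor the clustering of UMIs in a cell.

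The files held 28720 Control and 32028 Dach1OE cells, of which 26466 and 29317 had 500 to 6000 genes and under 25% mitochondrial UMIs, with medians of 3793.5 and 4055 UMIs. The libraries shared 1049 cell labels, beside 1039.7 for labels drawn at random. Cells were placed into 8 classes by markers that hold no FGF gene. In Control and Dach1OE order, the classes held 3006 and 1293 marrow stromal, 1695 and 2021 osteoblast, 1041 and 1226 osteocyte-gate, 4436 and 6304 chondrocyte, 9493 and 9763 endothelial, 1054 and 2015 mural, 471 and 369 fibroblast, and 1455 and 1359 haematopoietic cells. Each class is a range on a marker count: between 5.16% (endothelial, Control) and 48.6% (haematopoietic, Dach1OE) of its cells sat at the gate limit, and chondrocytes also carried a median of 5 of the 10 osteoblast markers. Dach1, the targeted gene, had 5.66 CPM in Control endothelial cells and 188 CPM in Dach1OE endothelial cells.

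The osteocyte gate needs a caution. Of its cells, 85.0% and 86.7% had a UMI of Phex, 80.5% and 79.1% of Slc36a2 and 59.0% and 57.8% of Dmp1, but only 2.11% and 2.61% had a UMI of Sost and 2.02% and 1.79% one of Mepe, the markers of embedded osteocytes. The gate thus holds mostly Phex-expressing cells with few or no UMIs of the markers of embedded osteocytes, with a median of 9 of 10 osteoblast markers, and is called here by its gate name. Its 43 Control and 53 Dach1OE cells with a UMI of Sost or Mepe are described apart, a split chosen after the data were seen.

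The receptors had different leading classes, and the order was almost the same in both libraries. Fgfr1 was highest in the osteocyte gate, Fgfr2 in marrow stromal cells and Fgfr3 in chondrocytes. Among the ligands, Fgf7 was highest in marrow stromal cells, Fgf1 in mural cells, Fgf2 and Fgf18 in fibroblasts and Fgf23 in endothelial cells. The plot of levels by class shows all 8 genes.

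**Figure D1:**
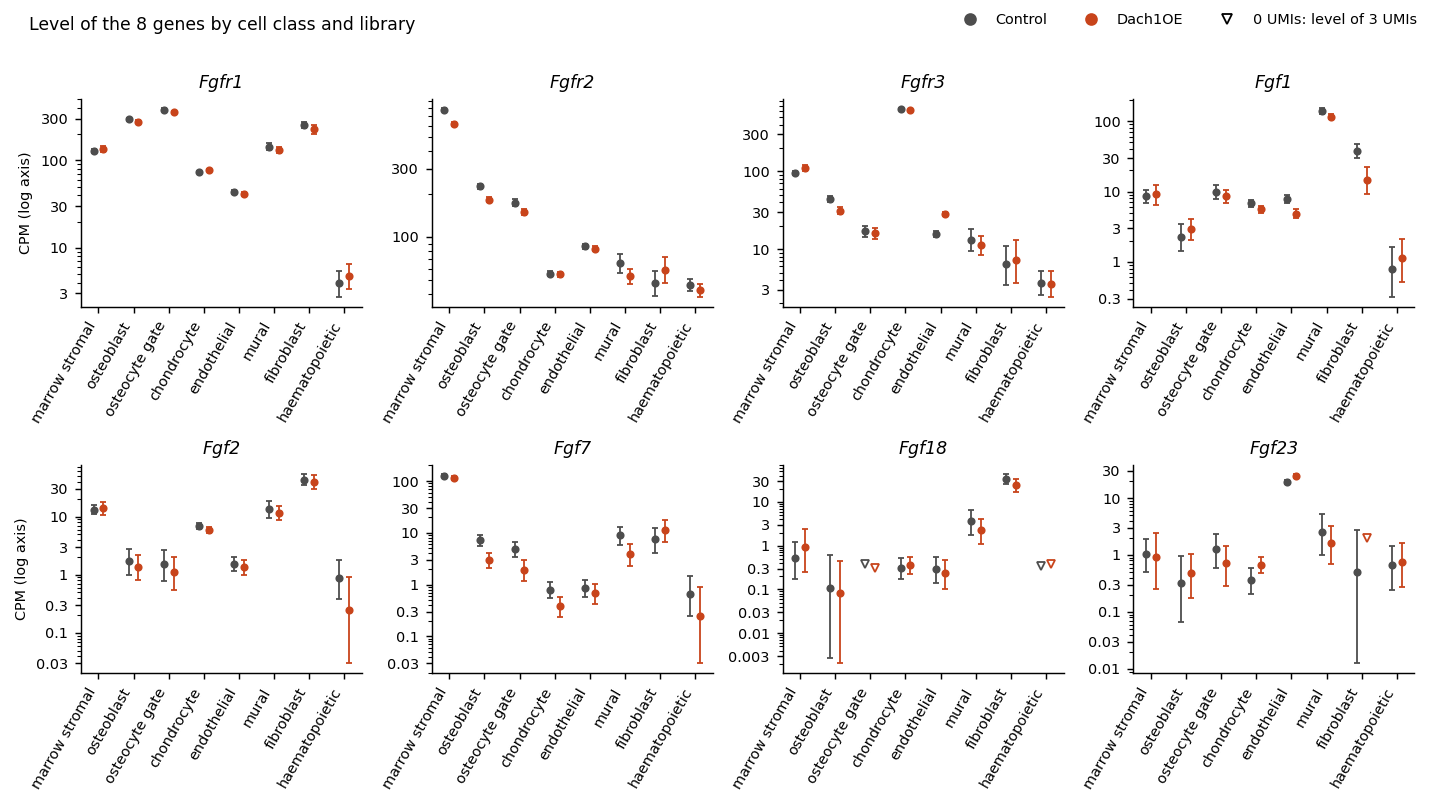
Level of each gene in CPM (log axis, a separate range per panel) in the 8 cell classes of the Control (grey) and Dach1OE (orange) libraries. Points are the class sums, bars are 95% Poisson intervals, and open triangles mark classes with 0 UMIs at the level that 3 UMIs would have; Fgfr3 stands at 644 and 617 CPM in chondrocytes and Fgf23 at 18.8 and 24.3 CPM in endothelial cells.

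Fgfr1 (chr8:25513654-25575718, + strand, GRCm38) was highest in the osteoblast lineage. In the osteocyte gate it had 384 CPM in Control and 358 CPM in Dach1OE, from 3058 and 3533 UMIs. In osteoblasts it had 295 and 278 CPM, and in fibroblasts 254 and 226 CPM. These classes were separated by their intervals in both libraries. Mural cells followed with 144 and 133 CPM and marrow stromal cells with 128 and 135 CPM, and this pair overlapped in both libraries. Chondrocytes had 73.7 and 78.4 CPM and endothelial cells 43.7 and 41.3 CPM. Haematopoietic cells, used here as a reference for free RNA, had 3.91 and 4.73 CPM. Free RNA may be higher in other classes. The 10 chondrocyte markers summed to 423 and 549 CPM in haematopoietic cells and to 1034 and 1411 CPM in endothelial cells. The level of free RNA in each class was not tested.

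After thinning every cell to 1000 UMIs, a UMI of Fgfr1 was seen in 31.7% and 29.8% of osteocyte-gate cells and in 0.413% and 0.664% of haematopoietic cells. Without thinning these shares were 86.9% and 88.2% against 2.13% and 2.58%, at median depths of 7547 and 7865 UMIs in the osteocyte gate and 5069 and 4798 UMIs in haematopoietic cells. No osteocyte-gate cell and 1 and 3 haematopoietic cells were shallower than 1000 UMIs and were left out.

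Within the osteocyte gate, Fgfr1 was higher in the cells with Sost or Mepe. These had 687 CPM in Control (95% interval 589 to 797) and 729 CPM in Dach1OE (642 to 824), beside 373 and 345 CPM in the cells with neither, a ratio of 1.84 (1.57 to 2.14) and 2.12 (1.86 to 2.40). Fgfr2 went the other way in the same cells, with 62.8 and 100 CPM beside 178 and 152 CPM, on only 16 and 35 UMIs.

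In the growth plate, Fgfr1 was highest in the hypertrophic sub-class (cells with more hypertrophic markers, such as Col10a1 and Ihh, than upper-zone markers). Hypertrophic cells had 101 and 119 CPM, upper-zone cells 65.4 and 56.4 CPM and the other chondrocytes 36.0 and 33.5 CPM. The hypertrophic level was 2.80 (2.52 to 3.13) and 3.57 (3.24 to 3.93) times that of the other chondrocytes. Hypertrophic cells carried a median of 6 of 10 markers of a second lineage in both libraries, and Ibsp and Alpl stand on both the hypertrophic and the osteoblast list; the part of osteoblast RNA in this level was not tested.

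Fgfr2 was highest in marrow stromal cells, the Lepr- and Cxcl12-expressing cells that support haematopoiesis. They held 38.4% of its UMIs in Control and 16.7% in Dach1OE, where chondrocytes held 21.1% and endothelial cells 17.8%. Marrow stromal cells had 781 CPM in Control (764 to 799) and 618 CPM in Dach1OE (595 to 642), from 7430 and 2636 UMIs. That is 3.45 and 3.38 times the level of osteoblasts at 226 and 183 CPM. The osteocyte gate had 174 and 150 CPM and endothelial cells 85.9 and 82.8 CPM. Mural cells (65.2 and 53.2 CPM), chondrocytes (55.4 and 54.6 CPM) and fibroblasts (47.6 and 59.1 CPM) did not separate from each other in either library.

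The haematopoietic reference was high for Fgfr2. Haematopoietic cells had 46.3 and 42.3 CPM, and 4.95% and 5.68% of them had a UMI after thinning, beside 53.4% and 43.2% of marrow stromal cells. Without thinning the shares were 22.9% and 20.2% against 81.6% and 74.4%, at median depths of 5069 and 4798 UMIs in haematopoietic and 2842 and 2978 UMIs in marrow stromal cells. The haematopoietic value was itself uneven: in a division chosen after the data were seen, erythroid cells had 29.2 and 24.6 CPM and the other haematopoietic cells 68.8 and 67.8 CPM. Fibroblasts were separated from haematopoietic cells in the Dach1OE library only.

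The gene model of Fgfr2 is unusually long. In GENCODE vM21, a later release than the vM19 used for the files, Fgfr2 spans chr7:130162451-133123350 on the - strand, or 2960.9 kb, through 1 transcript, while its next longest transcript spans 103.8 kb. Within that span lie 69 other genes, 30 of them protein-coding and 36 of them on the same strand. Intronic reads were counted into the tables, and how many Fgfr2 UMIs come from those genes was not tested.

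Fgfr3 (chr5:33721674-33737068, + strand, GRCm38) was the chondrocyte receptor. Chondrocytes had 644 CPM in Control (636 to 651) and 617 CPM in Dach1OE (611 to 623), and held 87.5% and 89.4% of all Fgfr3 UMIs of the kept cells. The level was nearly flat along the growth plate, at 646 and 627 CPM in upper-zone cells, 632 and 610 CPM in hypertrophic cells and 662 and 615 CPM in the other chondrocytes. A UMI was seen in 41.5% and 40.5% of thinned chondrocytes and in 0.688% and 0.590% of thinned haematopoietic cells, or 85.4% and 84.8% against 2.20% and 1.91% without thinning, at median depths of 10084.5 and 9576.5 UMIs in chondrocytes.

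Marrow stromal cells were next for Fgfr3 with 95.4 and 110 CPM, followed by osteoblasts with 44.2 and 31.3 CPM. The osteocyte gate had 16.9 and 16.02 CPM, mural cells 13.3 and 11.2 CPM and fibroblasts 6.44 and 7.30 CPM, and neighbours in this order did not separate. In endothelial cells the level of Fgfr3 differed between vessel types. Arterial cells (by Sox17, Gja4, Bmx and 5 other markers) had 46.1 and 83.5 CPM, sinusoidal cells (by Stab2, Flt4 and 6 other markers) had 12.5 and 15.3 CPM, and the other endothelial cells had 31.3 and 19.6 CPM. The arterial level was 3.70 (2.89 to 4.69) and 5.44 (4.75 to 6.24) times the sinusoidal one. Haematopoietic cells had 3.69 and 3.61 CPM, below every endothelial value, but free RNA may be higher in endothelial cells, as given above.

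Among the ligands, 3 stood at least 7 times higher in 1 class than in the next: Fgf7 in marrow stromal cells, Fgf18 in fibroblasts and Fgf23 in endothelial cells. Their promoters are shown because these members had the largest fold over the next class. RefSeq (GRCm38.p6) gave promoter sequences for 6 of the 8 genes, all but Fgfr1 and Fgf1. The 250 bases before the start are printed 5′ to 3′ on the strand of the gene, chr2:126034408-126034657 (+) for Fgf7, chr11:33147401-33147650 (-) for Fgf18 and chr6:127072652-127072901 (+) for Fgf23. Capitals mark the matches to 4 motifs searched on both strands, with the share of 32851 promoter windows of the same length that hold each. The TATA box, spelled TATAAA, was in 12.4% of windows. The GC box, spelled GGGCGG, was in 32.7%. The motif of GATA factors, spelled AGATAA, was in 9.99%. The motif of ETS factors, spelled AGGAAG, was in 29.5%.
Fgf7: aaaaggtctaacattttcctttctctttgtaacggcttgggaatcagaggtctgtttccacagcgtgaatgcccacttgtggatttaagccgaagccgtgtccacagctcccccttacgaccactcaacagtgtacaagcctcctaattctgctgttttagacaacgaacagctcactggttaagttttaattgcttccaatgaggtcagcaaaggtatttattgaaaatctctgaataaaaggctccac
Fgf18: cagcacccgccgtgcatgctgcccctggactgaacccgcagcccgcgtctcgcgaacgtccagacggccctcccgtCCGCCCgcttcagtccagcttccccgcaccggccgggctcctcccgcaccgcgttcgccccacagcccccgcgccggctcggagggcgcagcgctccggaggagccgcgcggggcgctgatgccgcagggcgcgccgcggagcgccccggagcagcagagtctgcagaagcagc
Fgf23: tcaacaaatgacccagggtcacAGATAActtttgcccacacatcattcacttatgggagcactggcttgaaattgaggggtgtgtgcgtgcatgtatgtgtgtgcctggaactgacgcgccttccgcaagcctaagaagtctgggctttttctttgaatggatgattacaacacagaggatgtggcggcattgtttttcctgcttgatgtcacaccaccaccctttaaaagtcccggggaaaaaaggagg
The Fgf23 window held 1 GATA motif starting 228 bases before the gene start, the Fgf18 window 1 GC box on the other strand, printed as its reverse complement, starting 174 bases before it, and the Fgf7 window none of the 4. The G and C content was 43.6% for Fgf7, 77.2% for Fgf18 and 48.4% for Fgf23. A match describes these letters and says nothing of whether a factor binds.

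Fgf23 (chr6:127072902-127081408, + strand, GRCm38, overlapped by no other gene) was found in sinusoidal endothelial cells and hardly at all in the osteocyte gate. Endothelial cells had 18.8 CPM in Control (17.3 to 20.3, 627 UMIs) and 24.3 CPM in Dach1OE (22.6 to 26.0, 824 UMIs), and held 84.8% and 83.8% of the Fgf23 UMIs of all kept cells. Of these UMIs, 624 and 806 lay in sinusoidal cells, which had 21.4 and 33.8 CPM. Arterial cells had 2 and 4 UMIs, or 1.07 and 0.652 CPM, so the sinusoidal level was 19.98 (5.51 to 165) and 51.8 (20.1 to 191) times the arterial one. The other endothelial cells had 1 and 14 UMIs.

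The osteocyte gate had 10 and 7 Fgf23 UMIs, or 1.25 CPM (0.601 to 2.31) and 0.710 CPM (0.285 to 1.46), beside 0.671 and 0.746 CPM in haematopoietic cells. None was in the 43 and 53 cells with Sost or Mepe, where 0 UMIs allow up to 11.8 and 8.58 CPM. The endothelial level was 15.0 (8.09 to 31.4) and 34.2 (16.5 to 85.4) times that of the osteocyte gate. Galnt3 and Fam20c, which act on the Fgf23 protein through glycosylation and phosphorylation, were highest in the osteocyte gate: Galnt3 had 41.0 and 38.2 CPM there and 1.17 and 1.15 CPM in endothelial cells. Fam20c had 56.2 and 42.8 CPM in the osteocyte gate and 2.72 and 3.54 CPM in endothelial cells. The co-receptor Kl had 37 UMIs over all classes of both libraries.

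The Fgf23 UMIs came from a small share of the sinusoidal cells, and many of these held more than 1. Of the sinusoidal cells, 310 in Control and 361 in Dach1OE had a UMI, 133 and 164 of these had 2 or more, and the highest held 11 and 22 UMIs. The 10 highest cells held 12.8% and 17.6% of the sinusoidal UMIs. After thinning, 1.51% and 2.53% of sinusoidal cells had a UMI beside 0 of 1454 and 0 of 1356 haematopoietic cells, which allow up to 0.206% and 0.221%. Without thinning the shares were 3.87% and 5.42% against 0.412% and 0.442%, at median depths of 2958 and 2962 UMIs in sinusoidal cells.

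Among all endothelial cells the share with Fgf23 followed the number of the 8 sinusoidal markers seen, a split chosen after the data were seen. In Control, at 1000 UMIs per cell, 0 of 1203 cells without any such marker had a UMI, then 0.573%, 0.717%, 1.53% and 2.52% of the cells with 1, 2, 3 and 4 markers, and 2.46% of those with 5 or more. In Dach1OE the shares were 0.335%, 0.685%, 1.70%, 3.38%, 5.10% and 6.96% in the same order. Cells with 5 or more markers numbered 1015 in Control and 345 in Dach1OE. The binomial intervals of these shares count cells, do not cover the spread between mice, and give no comparison of the genotypes. All 8 sinusoidal markers were lower in the Dach1OE sinusoidal sub-class, summing to 4070 CPM in Control and 2921 CPM in Dach1OE. A given number of markers therefore need not pick the same kind of cell in both libraries. The log2 ratio of sinusoidal Fgf23 was 1.30 in cells with Xist and no Y-linked UMIs and 0.15 in cells with Y-linked and no Xist UMIs. Fgfr3 ran the other way, from 3.33% without a marker to 1.18% with 5 or more in Control and from 5.24% to 1.16% in Dach1OE. Fgfr1 was also lower at the upper end, going from 5.24% to 2.56% in Control and from 5.15% to 2.03% in Dach1OE. Fgfr2 stayed between 8.03% and 8.97% in Control and between 6.09% and 8.80% in Dach1OE. Endothelial cells shallower than 1000 UMIs, 232 in Control and 305 in Dach1OE, were left out.

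**Figure D2:**
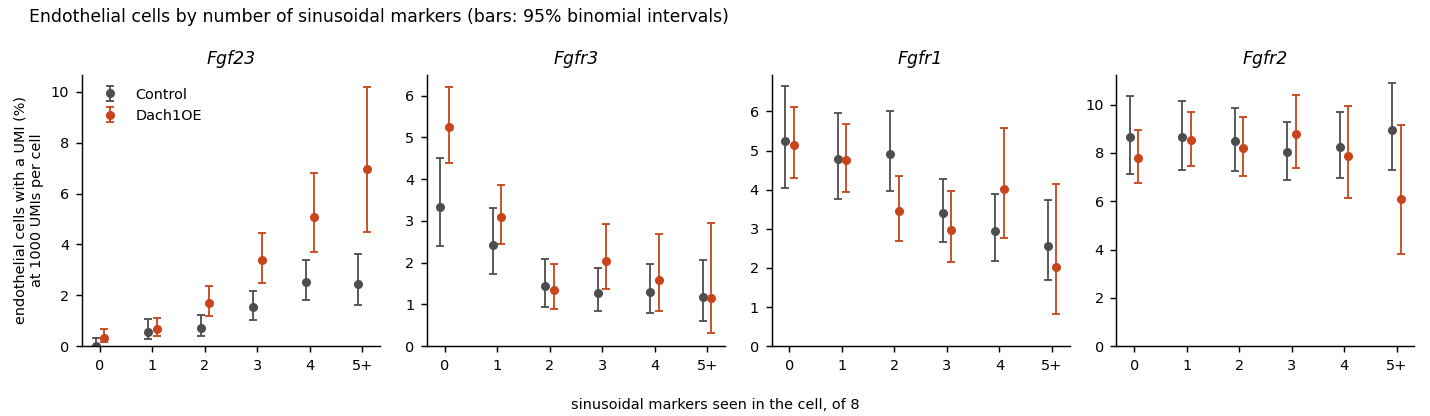
Share of endothelial cells with a UMI of 4 genes (percent, at 1000 UMIs per cell) against the number of the 8 sinusoidal markers seen in the cell, in Control (grey) and Dach1OE (orange); bars are 95% binomial intervals. The Fgf23 share climbs from 0 to 2.46% in Control and from 0.335% to 6.96% in Dach1OE, and the Fgfr3 share is highest in cells with no sinusoidal marker, at 3.33% and 5.24%.

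Fgf7 (chr2:126034658-126091185, + strand, GRCm38) was the marrow stromal ligand, in the same class as Fgfr2. Marrow stromal cells had 127 CPM in Control (120 to 135) and 116 CPM in Dach1OE (106 to 127), and held 77.9% and 65.5% of all its UMIs. Fibroblasts followed with 7.43 and 11.3 CPM and mural cells with 8.96 and 3.87 CPM. Osteoblasts had 7.17 and 2.99 CPM, the osteocyte gate 4.77 and 1.93 CPM, endothelial cells 0.868 and 0.678 CPM, chondrocytes 0.803 and 0.378 CPM and haematopoietic cells 0.671 and 0.249 CPM. Endothelial cells and chondrocytes did not separate from haematopoietic cells.

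Fgf1 (chr18:38838673-38929472, - strand, GRCm38) was highest in mural cells, which held 27.4% and 37.4% of its UMIs. Mural cells, the Rgs5- and Acta2-expressing cells around vessels, had 139 and 117 CPM, which is 17.7 (15.1 to 20.8) and 24.0 (20.2 to 28.7) times the endothelial level of 7.84 and 4.86 CPM. Fibroblasts had 38.1 and 14.6 CPM. The gene overlaps Arhgap26 on the other strand. Osteoblasts had 2.28 and 2.91 CPM, marrow stromal cells, the osteocyte gate and chondrocytes lay between 5.59 and 9.91 CPM, and haematopoietic cells had 0.783 and 1.12 CPM.

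Within the osteocyte gate, Fgf1 had a higher level in the few cells with Sost or Mepe, though most of its UMIs lay outside them. In Control these held 22 of the 79 UMIs of the gate and had 86.4 CPM (54.1 to 131) beside 7.38 CPM in the other cells, a ratio of 11.7 (6.81 to 19.4). In Dach1OE they held 38 of 84 UMIs and had 109 CPM (76.9 to 149) beside 4.83 CPM, a ratio of 22.5 (14.2 to 35.3). The 10 highest cells held 44.3% and 41.7% of the Fgf1 UMIs of the gate, and these intervals do not cover such clustering. Under the alternatives the log2 ratio ran from 0.86 to 4.08 in Control, beside 3.55 with the main settings. In Dach1OE it ran from 3.36 to 5.21, beside 4.49. The 10 mural markers summed to 829 and 286 CPM in the cells with Sost or Mepe, beside 181 and 257 CPM in the remaining osteocyte-gate cells and 35281.5 and 33358.0 CPM in mural cells, and their part in the Fgf1 level was not tested. The plot of the osteocyte gate shows Fgf1 beside the receptors.

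**Figure D3:**
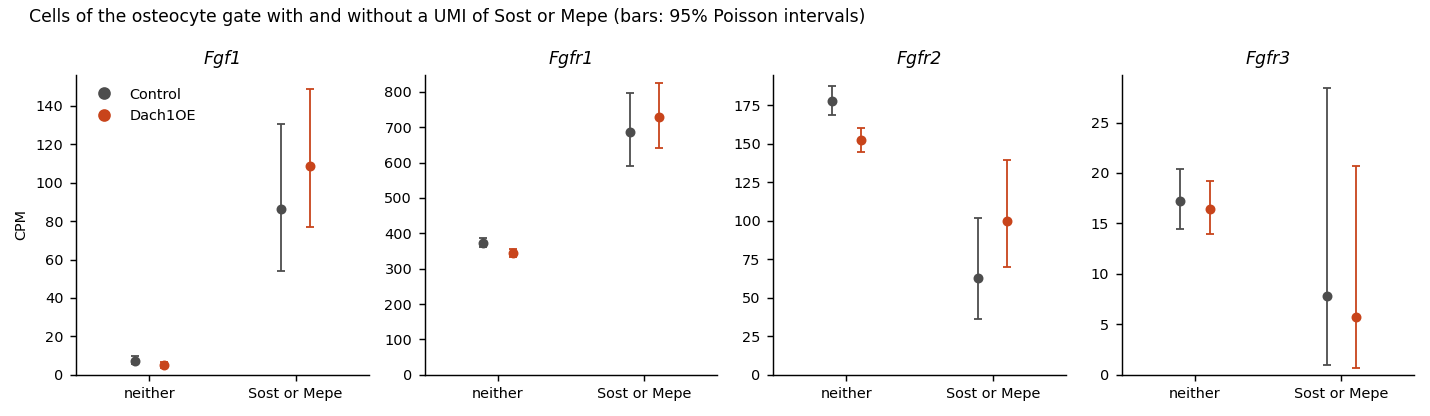
Level in CPM of Fgf1 and the 3 receptors in osteocyte-gate cells without (left) and with (right) a UMI of Sost or Mepe, in Control (grey) and Dach1OE (orange); bars are 95% Poisson intervals and every axis starts at 0. Fgf1 stands at 86.4 and 109 CPM and Fgfr1 at 687 and 729 CPM in the cells with Sost or Mepe, both above the cells with neither.

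Fgf2 (chr3:37348346-37410108, + strand, GRCm38) had at most 43.1 CPM in any class. Fibroblasts had 43.1 and 39.8 CPM, 3.28 (2.46 to 4.35) and 2.83 (1.95 to 4.12) times the level of marrow stromal cells at 13.1 and 14.1 CPM, which mural cells at 13.6 and 11.6 CPM overlapped. Chondrocytes had 6.89 and 5.87 CPM and held 41.0% and 49.9% of the UMIs. Osteoblasts, endothelial cells and the osteocyte gate had 1.12 to 1.74 CPM, beside 0.895 and 0.249 CPM in haematopoietic cells. In GENCODE vM21 the gene overlaps 4 others, among them Nudt6 and Fgf2os, and 3 of the 4 lie on the other strand. The strand setting of the counting is not given in the sources used here, so reads of such partners cannot be told apart from those of Fgf2. The same holds for Fam227b over Fgf7, Arhgap26 over Fgf1, Gm16159 over Fgfr1 and G630022F23Rik over Fgfr3, all on the other strand.

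Fgf18 (chr11:33117430-33147400, - strand, GRCm38, overlapped by no other gene) was highest in fibroblasts, where Fgf2 was higher still. Fibroblasts, gated by tendon markers such as Scx and Tnmd, and by Dpt, had 33.7 CPM in Control (26.2 to 42.7, 68 UMIs) and 24.6 CPM in Dach1OE (17.3 to 33.9, 37 UMIs), 9.40 (4.81 to 20.5) and 10.96 (5.47 to 23.8) times the mural level of 3.58 and 2.24 CPM. Every other class had less than 1 CPM, chondrocytes 0.312 and 0.362 CPM. The osteocyte gate had 0 UMIs, which allows up to 0.376 and 0.304 CPM, and haematopoietic cells had 0 UMIs, which allows up to 0.336 and 0.373 CPM. After thinning, 4.69% and 2.98% of fibroblasts had a UMI. Of all Fgf18 UMIs, 32.9% and 28.8% lay in cells that entered no class.

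Between the genotypes, most of the 8 genes differed little within a class. A gene was compared where it had at least 20 UMIs over both libraries, and a difference is counted when it is past 2-fold in either direction. In marrow stromal cells 0 of 6 compared genes were past 2-fold, where 3.48% of all 13254 compared genes were. In osteoblasts it was 1 of 6 (all genes 3.55%), in the osteocyte gate 1 of 6 (3.53%), in chondrocytes 1 of 8 (3.25%) and in endothelial cells 0 of 7 (6.91%). The gene past 2-fold was Fgf7 each time, lower in Dach1OE. The median log2 ratio of the compared members was 0.09 in marrow stromal cells, -0.32 in osteoblasts, -0.21 in the osteocyte gate, -0.04 in chondrocytes and -0.08 in endothelial cells, beside medians over all genes of -0.00, -0.12, -0.05, -0.00 and 0.03. With TMM scaling every osteoblast ratio would be higher by 0.14 and every osteocyte-gate ratio by 0.08.

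**Figure D4:**
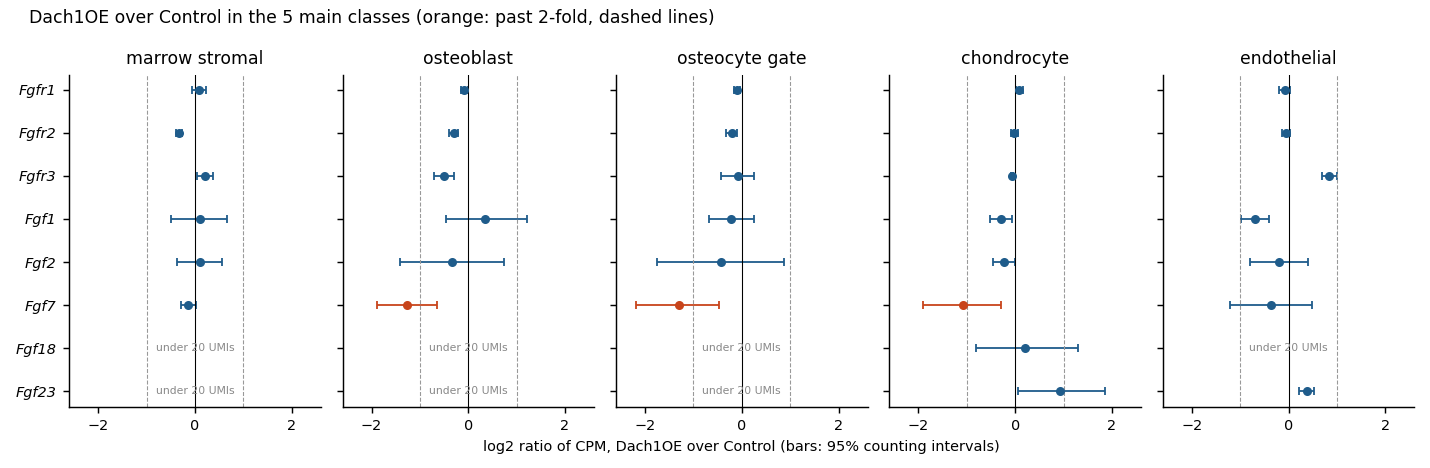
Log2 ratio of CPM, Dach1OE over Control, of each gene in the 5 main classes, with 95% exact binomial intervals that cover counting error only; dashed lines mark 2-fold and orange points lie past it. Fgf7 lies past 2-fold in osteoblasts (-1.26), the osteocyte gate (-1.31) and chondrocytes (-1.09), and Fgfr3 reaches 0.84 in endothelial cells.

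Fgf7 was lower in Dach1OE in osteoblasts, the osteocyte gate and chondrocytes. Its log2 ratio was -1.26 (-1.88 to -0.66) in osteoblasts, from 66 to 37 UMIs, -1.31 (-2.18 to -0.48) in the osteocyte gate, from 38 to 19 UMIs, and -1.09 (-1.91 to -0.29) in chondrocytes, from 36 to 23 UMIs. In marrow stromal cells it was -0.13 (-0.29 to 0.02), in endothelial cells -0.36 (-1.21 to 0.48) and in fibroblasts 0.60 (-0.49 to 1.71), on 15 and 17 UMIs. The markers of marrow stromal cells were lower in the same 3 classes: in osteoblasts they summed to 908 CPM (Control) and 475 CPM (Dach1OE), lower for 9 of 10 markers, and in the osteocyte gate 1252 and 610 CPM, lower for all 10. In chondrocytes it was 266 and 175 CPM, lower for 7 of 10, and in haematopoietic cells 79.1 and 49.3 CPM, lower for 8 of 10. In fibroblasts it was 757 and 599 CPM, lower for 9 of 10, beside the positive Fgf7 ratio. In endothelial cells it was 917 and 1024 CPM, lower for 7 of 10, and in their sinusoidal sub-class, which held all 29 Control and 16 of the 23 Dach1OE Fgf7 UMIs, 811 and 621 CPM, lower for 8 of 10, beside an Fgf7 ratio of -0.57 (-1.55 to 0.36). Marrow stromal cells themselves were 11.4% of the Control and 4.41% of the Dach1OE cells kept. The part of these cells or their free RNA in the Fgf7 ratios was not tested. With each cell assigned by its whole profile instead of the gate, the Fgf7 ratio was -0.11 in osteocytes, -0.86 in osteoblasts and -0.82 in chondrocytes, none of them past 2-fold. Without cells of a second lineage it was -0.87 in the osteocyte gate, on 26 UMIs in all, and no ratio could be formed in chondrocytes, where a stricter gate gave -0.75. At 1000 UMIs per cell Fgf7 fell under the minimum of 20 UMIs in the osteocyte gate (-1.04 on 11 UMIs) and in chondrocytes (-0.92 on 7 UMIs), and a minimum of 100 UMIs leaves it out of both. In mural cells Fgf7 had -1.21 (-2.15 to -0.29), on 25 and 19 UMIs, with marrow stromal markers at 1900 and 1961 CPM, and the sign turned in Xist-only cells (0.53).

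Fgfr2 was lower in Dach1OE in its leading class and in both osteoblast-lineage classes. In marrow stromal cells the log2 ratio was -0.34 (-0.40 to -0.27), in osteoblasts -0.31 (-0.39 to -0.22) and in the osteocyte gate -0.21 (-0.32 to -0.10). In both Xist-only cells (-0.28) and Y-linked-only cells (-0.41) of the marrow stromal class the ratio had this sign. All 10 marrow stromal markers were lower in Dach1OE in that class as well, summing to 59744 CPM in Control and 49861 CPM in Dach1OE, and the part of the gate in the Fgfr2 ratio was not tested. In endothelial cells (-0.05, -0.13 to 0.02) and chondrocytes (-0.02, -0.09 to 0.06) the intervals held 0.

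Fgfr3 was higher in Dach1OE endothelial cells, with 525 and 955 UMIs and a log2 ratio of 0.84 (0.68 to 0.996). Arterial cells held 86 of the 525 UMIs in Control and 512 of the 955 in Dach1OE, and numbered 509 and 1634. Within arterial cells the ratio was 0.86 (0.52 to 1.20), within sinusoidal cells 0.30 (0.08 to 0.51; -0.05 in Xist-only and 0.43 in Y-linked-only cells) and within the other endothelial cells -0.68 (-1.15 to -0.20). The 8 arterial markers summed to 3429 and 4684 CPM in the arterial sub-class, higher for 5 of 8. All 10 chondrocyte markers were higher in Dach1OE in each of the 3 sub-classes, summing to 1027 and 1399 CPM in sinusoidal, 1001 and 1300 CPM in arterial and 1136 and 1655 CPM in the other endothelial cells. The part of either marker list in the Fgfr3 ratios was not tested. Elsewhere the Fgfr3 ratio was 0.21 (0.05 to 0.37) in marrow stromal cells, -0.50 (-0.70 to -0.29) in osteoblasts and -0.06 (-0.08 to -0.04) in chondrocytes. The osteoblast value was 0.02 with cells assigned by profile.

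Fgf23 had a log2 ratio of 0.37 (0.22 to 0.52) in endothelial cells, where it was 1.04 (0.77 to 1.32) in Xist-only and -0.20 (-0.47 to 0.07) in Y-linked-only cells, and 0.66 (0.50 to 0.81) in sinusoidal cells, of which there were 8016 among the Control and 6664 among the Dach1OE endothelial cells. In chondrocytes the ratio was 0.92 (0.05 to 1.85), on 16 and 41 UMIs or 0.357 and 0.674 CPM, beside 0.671 and 0.746 CPM in haematopoietic cells, from which it was not separated in either library. In upper-zone chondrocytes it was 1.48 (0.15 to 3.06), on 6 and 24 UMIs or 0.432 and 1.20 CPM. Hypertrophic chondrocytes had 6 and 10 Fgf23 UMIs. The sinusoidal markers differed too: all 8 were lower in the Dach1OE sinusoidal sub-class, summing to 4070 and 2921 CPM, and their part in the sinusoidal Fgf23 ratio was not tested. In the Dach1OE library, thinned endothelial cells were divided by the presence of a Dach1 UMI, a division chosen after the data were seen. An Fgf23 UMI was found in 1.82% of the cells with a Dach1 UMI and in 1.83% of those without. For Fgfr3 the shares were 2.95% and 2.90%. The cells numbered 1591 with and 7867 without a Dach1 UMI, and Dach1 had 188 CPM in Dach1OE endothelial cells. At this level a cell that expresses Dach1 can lack a Dach1 UMI, so the dependence of Fgf23 or Fgfr3 on Dach1 was not tested. Fgf1 was lower in Dach1OE endothelial cells, at -0.69 (-0.98 to -0.40). Its ratio was -0.60 (-0.92 to -0.28) in sinusoidal and -1.83 (-3.10 to -0.58) in arterial cells, the latter on 13 and 12 UMIs. In the other endothelial cells it was 0.25 (-0.77 to 1.34). Under the alternatives the Fgf1 ratio ran from -1.15 to -0.06 in sinusoidal cells and from -3.17 to -0.10 in arterial cells. In fibroblasts the Fgf1 ratio was -1.39 (-2.14 to -0.69), on 77 and 22 UMIs. Of the 10 fibroblast markers, 5 were lower and 5 higher in Dach1OE there. Tnmd was seen in 41.6% and 29.0% of these cells and Dpt in 63.1% and 78.9%, and the part of this mix was not tested.

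The Fgfr1 log2 ratio was 0.08 in marrow stromal cells, -0.09 in osteoblasts, -0.10 in the osteocyte gate, 0.09 in chondrocytes and -0.08 in endothelial cells. The osteoblast value was 0.06 with TMM scaling, and the chondrocyte and endothelial values had opposite signs in Xist-only (-0.20 and -0.20) and Y-linked-only cells (0.56 and 0.23). Among the sub-classes it was -0.21 (-0.34 to -0.09) in upper-zone and 0.24 (0.16 to 0.33) in hypertrophic chondrocytes, -0.13 (-0.26 to -0.00) in sinusoidal and -0.45 (-0.78 to -0.12) in the other endothelial cells. The sign turned in Y-linked-only cells of the upper zone (0.25), the sinusoidal (0.06) and the other endothelial sub-class (0.57). In hypertrophic chondrocytes it turned in Xist-only cells (-0.13). The ratio was -0.57 (-0.83 to -0.29) in arterial cells, at 89.0 and 60.1 CPM, with -0.58 in Xist-only and -0.48 in Y-linked-only cells.

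The cells of both sexes in each library gave a view of the mice behind it. Cells with Xist UMIs and no Y-linked UMIs and cells with Y-linked UMIs and no Xist UMIs were taken to come from different mice. Of the 9493 Control endothelial cells, 3032 were Xist-only and 2281 Y-linked-only. Cells with both numbered 349 and 354 among endothelial cells and 329 and 449 among chondrocytes, so some cells may be placed wrongly. Sex and mouse cannot be told apart here. For sinusoidal Fgf23 the log2 ratio was 1.30 (1.03 to 1.58) in Xist-only cells, from 16.7 to 41.1 CPM, and 0.15 (-0.12 to 0.43) in Y-linked-only cells, from 27.8 to 31.0 CPM. Control Xist-only cells thus had the lowest of the 4 values. Fgfr3 in arterial cells was higher in Dach1OE in both, at 1.05 (0.42 to 1.73) and 0.69 (0.02 to 1.44). Fgf1 in endothelial cells was lower in both, at -0.33 (-0.82 to 0.15) and -1.04 (-1.61 to -0.48). Within sinusoidal cells it was -0.06 (-0.58 to 0.46) in Xist-only and -1.15 (-1.83 to -0.51) in Y-linked-only cells. Fgf7 was lower in both in osteoblasts, at -0.80 and -2.44, and in the osteocyte gate, at -0.96 and -2.63, on 3 to 30 UMIs. In marrow stromal cells, its leading class, the signs differed. Fgf7 had 0.20 (-0.04 to 0.43) in Xist-only cells, on 475 and 214 UMIs. It had -0.48 (-0.84 to -0.14) in Y-linked-only cells, on 237 and 98 UMIs.

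**Figure D5:**
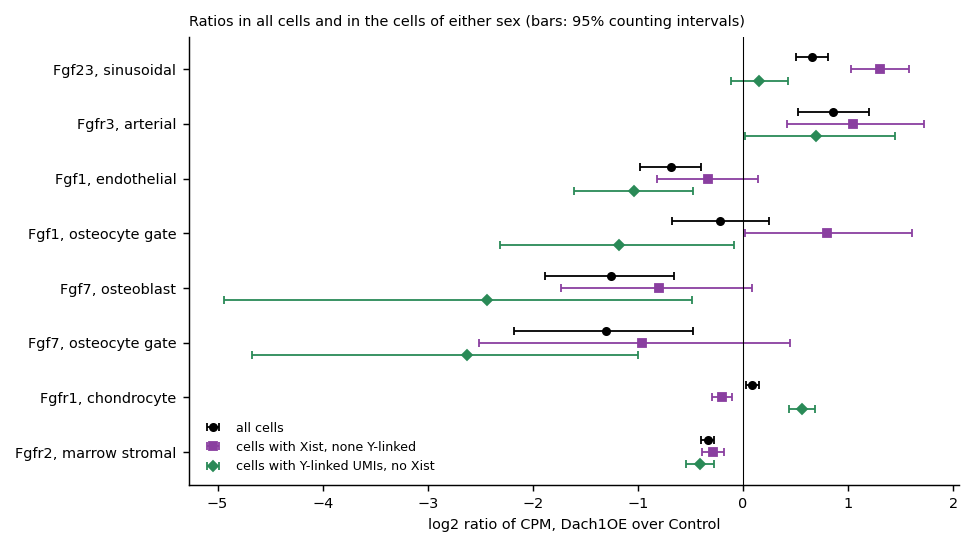
Log2 ratio of CPM, Dach1OE over Control, for 8 pairs of gene and class, in all cells (black circles), in cells with Xist and no Y-linked UMIs (purple squares) and in cells with Y-linked and no Xist UMIs (green diamonds); bars are 95% exact binomial intervals. Fgf23 in sinusoidal cells stands at 1.30 in Xist-only and 0.15 in Y-linked-only cells, and Fgfr2 in marrow stromal cells at -0.28 and -0.41.

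Of the other 80 genes of the FGF pathway (ligands, co-receptors, feedback inhibitors, targets, adaptors, heparan sulfate proteins and enzymes, and Fgf23-processing genes), 60 to 68 could be compared in a class. Past 2-fold were 2 of 60 in marrow stromal cells, osteoblasts and the osteocyte gate each, all lower in Dach1OE, 2 of 68 in chondrocytes and 4 of 65 in endothelial cells. These shares lie near those of all genes compared, which were 3.48% in marrow stromal cells, 3.55% in osteoblasts, 3.53% in the osteocyte gate, 3.25% in chondrocytes and 6.91% in endothelial cells. In endothelial cells Ccnd1, the cyclin D1 gene, had 275 CPM in Control and 743 CPM in Dach1OE, a log2 ratio of 1.44 (1.40 to 1.47). Of the 8 genes on the target list, which holds Ccnd1, 2 were higher and 6 lower there, the 6 with intervals below 0. Their median log2 ratio was -0.27. Sdc1, a heparan sulfate core protein, had 6.08 and 14.5 CPM (1.26, 1.02 to 1.5), with a log2 ratio of 1.95 (1.36 to 2.6) in arterial and 0.22 (-0.12 to 0.56) in sinusoidal cells, whose numbers differ between the libraries as given above. Flrt1, a transmembrane partner of FGF receptors, had 0.269 and 2.21 CPM (3.04, 2.03 to 4.22). Hs3st1, a heparan sulfate sulfotransferase, had 35.0 and 13.1 CPM (-1.42, -1.58 to -1.26). These 4 kept their direction in Xist-only and Y-linked-only cells.

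Several pathway genes had a leading class of their own. Spry1, a feedback inhibitor, was highest in marrow stromal cells with 317 and 308 CPM, where Fgfr2 and Fgf7 were highest too. Dusp6, a phosphatase that acts on ERK, was highest in endothelial cells with 336 and 266 CPM, and Spry4 in mural cells with 189 and 236 CPM. Fgfrl1, a receptor-like protein without a kinase domain, had 191 and 201 CPM in chondrocytes, and Fgfr4 had its highest level there with 5.20 and 5.60 CPM. Furin, a proprotein convertase, was highest in chondrocytes with 157 and 141 CPM and had 55.7 and 64.5 CPM in endothelial cells.

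In the other classes the genes past 2-fold were thinly counted. In marrow stromal cells, Flrt3 had 33 and 7 UMIs (-1.08, -2.50 to 0.12), and the inhibitor Dusp4, named after its value was seen, had 20 and 4 (-1.16). In osteoblasts, Hs3st1 had 17 and 10 UMIs (-1.19, -2.48 to 0.02) and Fgf20 26 and 17 (-1.04, -2.01 to -0.10). In the osteocyte gate, the ligand Fgf10 had 19 and 3 UMIs (-2.97, -5.37 to -1.21) and the adaptor Frs3 21 and 7 (-1.89, -3.37 to -0.60). In chondrocytes, the ligand Fgf9 had 24 and 13 UMIs (-1.32, -2.42 to -0.29) and Dusp4 5 and 16 (1.24, -0.28 to 3.04).

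The genes whose levels ran most like each member over 26 sums of class and library were found by Pearson correlation of log2(CPM + 1) among 14573 genes outside the marker lists. These sums share their libraries, and the values are a description. For Fgfr1 they were Col5a2 (0.96), Cacnb3 (0.95) and Rhoq (0.93), and for Fgfr2 C6 (0.94), Gdpd2 (0.93) and Gm20619 (0.92). For Fgfr3 they were Pou3f3, Efcab1 and Car8, each at 0.93. Fgf1 ran with Egflam (0.93) and Mustn1 (0.90), and Fgf2 with Lama2 (0.96), Klhl29 (0.94) and Lynx1 (0.94). Fgf7 ran with Dpep1 (0.93), Aldh1a2 (0.93) and Ccl19 (0.92), Fgf18 with Mfap5 (0.97), Hmcn2 (0.95) and Prph (0.95), and Fgf23 with Ttc6 (0.93), Rdh16 (0.90) and Ly6g6e (0.90). Col5a2 had 3383 and 3734 CPM in the osteocyte gate and 91.4 and 137 CPM in endothelial cells, and Rdh16 had 9.85 and 33.7 CPM in endothelial cells and less than 2 CPM in marrow stromal, mural and osteocyte-gate cells, chondrocytes and fibroblasts.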

How the data were processed

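Single-cell RNA libraries of 2 genotypes, 1 library each, were made on the BD Rhapsody Express system and sequenced on a NextSeq 500. The deposited tables hold counts per cell and gene. Per the file headers, the authors made them on GRCm38 with release 1.11 of the BD Rhapsody WTA Analysis Pipeline and GENCODE vM19 (mm10 in the labels; the methods of the study name another pipeline version), counting intronic reads. The counts used here are the deposited UMIs after the pipeline's RSEC error correction, which merges near-identical UMIs and so lowers counts slightly; the strand setting and sample tags are not given in the sources used here. The 2 files held 143986818 and 166999989 such UMIs, 1.51 and 1.45 reads each, so low genes are thinly sampled.

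The filter kept every cell that had 500 to 6000 genes and a mitochondrial share under 25%. A cell entered a class with at least 3 of its 10 markers and at least 2 more than for any other lineage; marrow stromal, osteoblast and osteocyte lists counted as 1 lineage, within which 3 osteocyte markers gave the osteocyte gate. Endothelial and chondrocyte cells were divided by lists of 8 markers, with at least 2 seen and 1 more than on the opposing list. Cells whose 2 highest lineages were less than 2 markers apart fell out, while cells with a larger lead stayed in whatever markers of a second lineage they had. No doublet caller was run, and leaving out cells with 3 markers of a second lineage was an alternative. UMIs were summed per class and library. Intervals were exact Poisson, Clopper-Pearson or conditional binomial, at 95%. Shares were also taken after thinning to 1000 UMIs. A count of 0 was given the limit of 3 UMIs.

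Named beside the members were, from 8 pathway lists, up to 3 genes per class and direction past 2-fold with at least 20 UMIs and the same direction in both sexes, and the 3 genes most like each member (members with 100 UMIs, other genes with 200). For Fgf1, 1 of these genes is not reported here. The members and lists were chosen with earlier results of these data known. Gene positions came from GENCODE vM21. There were 14 alternative settings, among them TMM factors of edgeR 4.0.16 (R 4.3.3). Python 3.11.15, numpy 2.4.6, scipy 1.17.1, pandas 2.3.3 and matplotlib 3.10.9 were used, and scripts were tested on simulated data.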

Additional observations from a re-analysis of the deposited data

Results flagged for a closer look

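Some effects of Dach1OE over Control had opposite signs in different classes or in the mice of either sex, with counting intervals that exclude 0 on both sides. None of these differences was tested between mice, since each genotype has 1 library. Fgfr3 had a log2 ratio of 0.21 in marrow stromal cells, 0.84 in endothelial cells and 0.86 in arterial endothelial cells, but -0.50 in osteoblasts, where it was 0.02 with cells assigned by profile, and -0.68 (-1.15 to -0.20) in endothelial cells of neither the sinusoidal nor the arterial sub-class and -0.06 (-0.08 to -0.04) in chondrocytes. Fgf1 in the osteocyte gate had 0.80 in cells with Xist and no Y-linked UMIs and -1.18 in cells with Y-linked and no Xist UMIs. These rest on 23 and 39 UMIs (0.02 to 1.61) and on 19 and 13 UMIs (-2.32 to -0.08), and 10 cells held 44.3% of the Fgf1 UMIs of the gate in Control and 41.7% in Dach1OE. Fgf1 in hypertrophic chondrocytes had the opposite order, with -0.87 (-1.40 to -0.36) in Xist-only cells, on 88 and 52 UMIs, and 0.71 (0.16 to 1.29) in Y-linked-only cells, on 38 and 99 UMIs. Fgfr1 in chondrocytes had -0.20 in Xist-only and 0.56 in Y-linked-only cells, from 86.2 to 75.2 CPM and from 51.0 to 75.1 CPM, so the Control library held the extremes. The same signs were found for Fgfr1 in hypertrophic chondrocytes (-0.13 and 0.66) and in chondrocytes of neither the upper-zone nor the hypertrophic sub-class (-0.49 and 0.57). Fgfr1 in endothelial cells had -0.20 and 0.23 in the same order. Fgfr3 in upper-zone chondrocytes had 0.07 (0.01 to 0.12) and -0.16 (-0.23 to -0.09).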

How the results depend on the processing

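No paired analysis was possible because each genotype has 1 library. Of 692 member ratios recomputed under the alternatives, 595 stayed within the counting interval of the reported ratio, 81 moved outside it, and 16 whose reported interval excludes 0 changed sign. Sign changes of ratios whose interval holds 0 are counted within the 595 and the 81. Of 275 ratios between classes, 214 stayed within their interval and 61 moved outside it. The cause was not tested for any of these unless the alternative has fewer cells by construction.

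The count of members past 2-fold was 1 in osteoblasts, and 0 with classes by profile, in Xist-only or in Y-linked-only cells, and 2 as a mean over cells. In the osteocyte gate it was 1, and 0 with classes by profile, without cells of a second lineage, in Xist-only cells, at 1000 UMIs per cell or with at least 100 UMIs, and 2 in Y-linked-only cells. In chondrocytes it was 1, and 0 with a stricter gate, classes by profile, without cells of a second lineage, in Xist-only or Y-linked-only cells, at 1000 UMIs per cell or with at least 100 UMIs. In endothelial cells it was 0, and 1 in Xist-only and 2 in Y-linked-only cells. In Y-linked-only cells the Fgf7 ratio was -2.44 in osteoblasts and -1.08 in chondrocytes, on 13 and 18 UMIs in all, under the minimum of 20, so neither is counted. At 1000 UMIs per cell, or with a minimum of 100 UMIs, Fgf7 is likewise below the minimum in the osteocyte gate and chondrocytes. Over all genes, the count past 2-fold was 461 in marrow stromal cells (73 to 7000 under the alternatives), 487 in osteoblasts (70 to 6361), 463 in the osteocyte gate (62 to 6245), 574 in chondrocytes (94 to 5759) and 1135 in endothelial cells (537 to 6748), highest with no filter on low counts, by construction.

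Among the 692 recomputed log2 ratios, those that changed sign although their reported interval excludes 0 were as follows. In Xist-only cells, Fgfr1 was 0.0014 in osteoblasts and -0.20 in chondrocytes, and Fgfr3 0.0293 in chondrocytes and -0.0530 in sinusoidal cells. Fgf7 was 0.53 in Xist-only mural cells, on 15 UMIs. In Y-linked-only cells, Fgf1 was 0.22 and Fgf2 0.30 in chondrocytes, Fgf23 -0.20 in endothelial cells and Fgfr1 0.0635 in sinusoidal cells. Without cells of a second lineage, which leaves 558 Fgfr1 UMIs in chondrocytes, Fgfr1 was -0.43, Fgf1 0.65 and Fgf2 0.45 there. At 1000 UMIs per cell, Fgf2 was 0.10 in chondrocytes and Fgfr1 0.0301 in sinusoidal cells. With classes by profile, Fgfr3 was 0.0168 in osteoblasts. TMM factors moved all osteoblast ratios by 0.14 and all osteocyte-gate ratios by 0.08, and turned Fgfr1 in osteoblasts to 0.0574. The chondrocyte sub-classes and the other endothelial cells were not among the 692. There, Fgfr1 turned to 0.25 in upper-zone and 0.57 in other endothelial cells, both Y-linked-only, and to -0.13 in Xist-only hypertrophic cells. Fgfr3 turned to 0.07 in Xist-only upper-zone and 0.04 in Xist-only hypertrophic cells. Depth limits Fgf18 and, outside their leading classes, Fgf7 and Fgf23, which rest on at most 68 UMIs in any class and library.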
